A study of Mus musculus with 18 samples.

Results

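The 10 receptor tyrosine kinases for growth factors studied here were followed through oligodendrocyte differentiation in cells with and without Thap1: the PDGF receptor Pdgfra, the ERBB receptors Egfr, Erbb2 and Erbb3, the FGF receptors Fgfr1, Fgfr2 and Fgfr3, the insulin and insulin-like growth factor receptors Insr and Igf1r, and the hepatocyte growth factor receptor Met. They were chosen by gene symbol, and all 10 were found among the 38046 genes of the table. RNA was sequenced from 18 libraries of mouse oligodendrocyte progenitor cells (OPCs) grown as clonal lines from primary neural stem cells. Clones D7, D3 and E8 were controls, and clones 3F, D6 and 7F were null for Thap1, which encodes a DNA-binding zinc finger protein. Each clone gave 1 library as OPCs in growth medium with PDGF-AA, 1 after 2 days in vitro (DIV2) and 1 after 4 days (DIV4) in oligodendrocyte differentiation medium with the thyroid hormone T3. The 6 groups therefore hold 3 clones each, and the growth factor and the medium change together between OPC and DIV2. The limma p-values rest on a spread between clonal lines that is pooled over all 6 groups, so a comparison also carries the spread of groups outside it. The main fit did not pair the libraries of a clone.

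Receptor tyrosine kinases are single-pass membrane proteins that act as pairs. When ligand is bound they phosphorylate each other and recruit adaptors that switch on the Ras-MAPK and PI3K-Akt pathways. In the oligodendrocyte lineage PDGF-AA acts through Pdgfra to keep progenitors dividing, and the receptor is lost as cells leave the progenitor state. FGF receptors act in both progenitors and maturing cells, Erbb3 binds neuregulins but needs another ERBB receptor as partner to signal because its own kinase is weak, and the insulin-like growth factor receptor supports survival and growth.

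Levels are given as rescaled TPM: the deposited TPM (abundance per transcript length relative to the total of the library) summed over the transcripts of a gene and divided by a library factor computed from 11432 genes. The rescaling matters, because 3 noncoding features took up 64.8 to 88.0% of the deposited TPM of the control OPC libraries and 34.8% of that of the null D6 OPC library, but at most 3.17% elsewhere. On the deposited scale the median gene therefore lay 1.96 log2 units higher at DIV2 than in OPCs of the control clones and 1.503 higher in null than in control OPCs, and both medians were within 0.04 of 0 after rescaling. Over all genes, 10713 were called higher and 72 lower for control DIV2 against OPC on the deposited scale, against 2208 and 2159 after rescaling, and 10407 and 39 for null against control OPCs, against 751 and 741. Each receptor is also given as its share of the summed TPM of the 10 receptors, which no library scaling can alter. A share also moves when another receptor of the total moves, and Pdgfra held most of that total in OPCs. TPM keeps no read depth, so counting error is unknown. Protein-coding Thap1 transcripts stood at 1.92 to 4.41 rescaled TPM in the 9 control libraries and at 0.198 to 0.780 in the 9 null libraries. Summed over all its transcripts, as for the other genes, Thap1 stood at 3.84 to 8.25 in control and 5.25 to 12.02 in null libraries, and each null OPC library lay above each control OPC library, so the check of the labels rests on the coding transcripts. Olig2 and Sox10, which define the lineage, were at least 24.4 and 50.1 in every library. The control D3 OPC library stood apart, with 64.4 rescaled TPM summed over 10 cell cycle genes against 581 to 709 in the other 5 OPC libraries, and so did the control D7 library at DIV4, described with the results it touches.

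Pdgfra (chr5:75152292-75198215, plus strand, mm10) was by far the most abundant of the receptors in OPCs and lost most of its RNA by DIV2 in all 6 clones. In control OPCs it stood at 104.4 rescaled TPM in clone D7, 94.4 in D3 and 99.0 in E8, and in null OPCs at 99.5 in 3F, 102.8 in D6 and 72.3 in 7F. At DIV2 it stood at 5.42, 21.9 and 4.31 in the control clones and at 3.42, 7.04 and 4.54 in the null clones, in the same order. No DIV2 library reached the level of any OPC library, as was so within the control clones for 42.1% of all genes tested and within the null clones for 50.8%, and clone D3 kept the most. The mean went from 99.3 ± 5.01 (SD, n = 3) to 10.5 ± 9.83 in the controls and from 91.5 ± 16.7 to 5.0 ± 1.86 in the null clones. Pdgfra fell by 3.44 on the log2 scale in controls (SE 0.64, limma adjusted p = 0.00109) and by 3.97 in null clones (SE 0.64, adjusted p = 0.000511). On the deposited TPM the control change was a difference of -0.80 that did not pass the test (adjusted p = 0.362), while the median gene rose there by 1.96. The null change was -3.61 on that scale and was called (adjusted p = 0.00485).

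The share measure, free of scaling, moved the same way. Pdgfra made up 76.5 to 79.9% of the receptor RNA in control OPCs and 74.0 to 79.4% in null OPCs. At DIV2 it made up 21.7% in D7, 47.2% in D3 and 22.6% in E8, and 15.9 to 27.9% in the null clones. The share was thus the largest of the 10 in all 6 OPC libraries and lower at DIV2 in each clone by 32.7 to 59.2 percentage points.

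By DIV4 the control clones had parted. Pdgfra stood at 48.9 rescaled TPM in D3 and 50.8 in E8, but at 6.92 in D7. The null clones stood at 7.48, 19.2 and 9.76, below D3 and E8 and above D7. Control DIV4 against DIV2 was a difference of 1.57 (SE 0.64) with all libraries, which did not pass the test (limma adjusted p = 0.381), and of 2.47 without the D7 DIV4 library, which did (adjusted p = 0.0144). Pdgfra remained lower at DIV4 than in OPCs by 1.87 in controls (SE 0.64, adjusted p = 0.0376) and by 2.90 in null clones (SE 0.64, adjusted p = 0.00305). The control call was lost without the D7 DIV4 library (-0.98, adjusted p = 0.167) and without any one of the 3 OPC libraries (adjusted p 0.0574 to 0.0886), and on the deposited TPM its direction turned to 0.85 (adjusted p = 0.324). Null against control at DIV4 was -1.16 (SE 0.64, adjusted p = 0.337) with all libraries and -2.05 without D7 (adjusted p = 0.0332). The Pdgfra share of receptor RNA overlapped there, at 16.4 to 25.9% in null and 9.68 to 63.7% in control clones (exact permutation p = 0.4, adjusted 0.606).

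The D7 DIV4 library differed from the other control DIV4 libraries well beyond Pdgfra. Its myelin gene Mbp stood at 4791 rescaled TPM against 929 in D3 and 668 in E8, and 13 oligodendrocyte markers summed to 14020 against 3164 and 2799. The astrocyte filament gene Gfap stood at 0.18 there against 102.6 in D3 and 239.3 in E8, and 10 astrocyte markers summed to 115 against 588 and 985. In the null DIV4 libraries the same 10 markers summed to 474 to 540 and Gfap to 80.4 to 139.0, while the astrocyte gap junction gene Gja1 was at most 0.10 in every library. The neural stem cell list summed to 89.0 in D7 against 578 and 653 in the other control DIV4 libraries. The part of this cell makeup in the receptor levels was not tested, and in bulk RNA fewer cells of a type and less RNA per cell cannot be told apart.

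**Figure D1:**
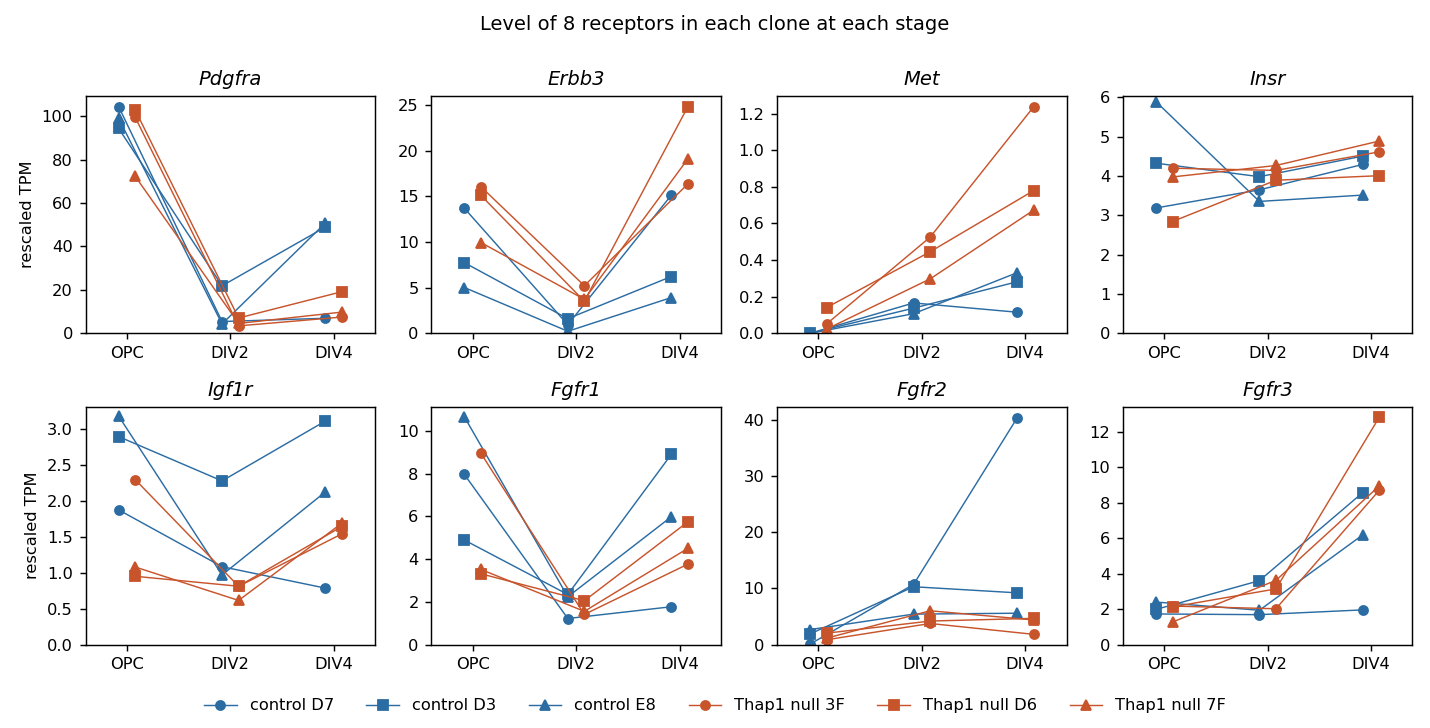
Level of 8 receptors in rescaled TPM (y axis, linear from 0, own range per panel) at OPC, DIV2 and DIV4 (x axis), 1 point per library and 1 line per clone; blue clones are controls and orange clones Thap1 null. Pdgfra drops in all 6 clones by DIV2, Erbb3 dips and returns, and control clone D7 leaves the other controls at DIV4, with Pdgfra at 6.92 and Fgfr2 at 40.3.

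Counted over the receptors, 7 of the 10 had a mean of at least 1 rescaled TPM and entered the test beside 12473 genes in all. Between control OPC and DIV2, Erbb3, Fgfr1 and Pdgfra fell and Fgfr2 rose, so that 4 of 7 were called where 35% of all genes tested were. In the null clones Erbb3 and Pdgfra fell, 2 of 7 against 27.9% of all genes. The median receptor changed by -0.60 in controls and -0.45 in null clones, beside all-gene medians of 0.02 and -0.02. The summed level of the 10 receptors went from 127 ± 7.74 (SD, n = 3) to 30.1 ± 14.4 rescaled TPM in controls between OPC and DIV2, and Pdgfra carried most of that difference. No receptor passed the test of whether its change differed between genotypes: 0 of 7 for DIV2 against OPC, 0 of 7 for DIV4 against OPC and 0 of 7 for DIV4 against DIV2 in limma, with 0 at an unadjusted p under 0.05 in each, where 0.465%, 2.79% and 0.0241% of all genes were called. On the deposited TPM Fgfr2, Insr and Pdgfra were called for DIV2 against OPC, where 72.6% of all genes were, and for DIV4 against OPC, where 73.5% were. Their differences (null minus control) there were below 0, as was that of the median gene at -1.66 and -1.68, so 3 of 7 is a smaller share than that of all genes. On the same scale 6 of 7 were called for control DIV4 against OPC, where 88.1% of all genes were, and 3 of 7 for null against control OPCs, where 81% were.

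Erbb3, the neuregulin receptor (chr10:128567523-128589652, minus strand), dipped at DIV2 and came back at DIV4 in every clone. In control OPCs it stood at 13.7 rescaled TPM in D7, 7.74 in D3 and 5.02 in E8, then at 0.94, 1.60 and 0.22 at DIV2 and at 15.1, 6.22 and 3.91 at DIV4. In the null clones 3F, D6 and 7F it stood at 16.1, 15.1 and 9.95 in OPCs, at 5.21, 3.51 and 3.72 at DIV2 and at 16.4, 24.8 and 19.1 at DIV4. Every clone was lowest at DIV2, and clones D3 and E8 did not regain their OPC level. Erbb3 fell by 2.33 in controls between OPC and DIV2 (SE 0.41, limma adjusted p = 0.000728) and by 1.503 in null clones (SE 0.41, adjusted p = 0.0133). On the deposited TPM neither fall was called, with differences of -0.43 (adjusted p = 0.356) and -1.15 (adjusted p = 0.0761).

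The return of Erbb3 from DIV2 to DIV4 was called in both genotypes, at 2.18 in controls (SE 0.41, limma adjusted p = 0.0414) and 2.03 in null clones (SE 0.41, adjusted p = 0.0206). Few genes moved in that interval: Erbb3 was the 1 receptor of 7 called in controls, where 0.233% of all genes were, and Erbb3 and Fgfr3 were the 2 of 7 called in null clones, where 2.1% were. Both calls depended on single libraries. The control call was lost without the D7 DIV2 library (2.22, adjusted p = 0.150), the E8 DIV2 library (1.89, adjusted p = 0.231) or the D3 DIV4 library (2.28, adjusted p = 0.0929), and the null call held in 1 of 6 such fits, at 1.88 to 2.17 with adjusted p from 0.0479 to 0.101. The size changed little, and the rise was positive in each clone, from 1.47 to 3.06 on the log2 scale.

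Erbb3 also lay higher in the null clones, though the genotype test did not pass. The groups overlapped in OPCs, where the difference was 0.65 (SE 0.41, limma adjusted p = 0.312). They did not overlap at DIV2, at 4.15 ± 0.93 (SD, n = 3) in null against 0.92 ± 0.69 in control clones, nor at DIV4, at 20.1 ± 4.32 against 8.42 ± 5.92. The log2 differences were 1.48 at DIV2 (SE 0.41, adjusted p = 0.0767) and 1.33 at DIV4 (SE 0.41, adjusted p = 0.0776). Groups without overlap were common, at 30.9% of all genes tested at DIV2 and 26.7% at DIV4. The DIV4 difference was called without the control D7 DIV4 library (1.81, adjusted p = 0.0152), and the DIV2 difference with a pseudocount of 0.1 (2.34, adjusted p = 0.0401). Over the 7 receptors none was called between genotypes in OPCs, at DIV2 or at DIV4 with limma, with 0, 1 and 3 at an unadjusted p under 0.05, where 12%, 2.8% and 4.81% of all genes were called.

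As a share of the receptor RNA the same contrast was wider. Erbb3 took 10.6 to 11.95% in null OPCs and 3.88 to 10.3% in control OPCs, 13.9 to 24.3% against 1.15 to 3.75% at DIV2, and 33.6 to 35.8% against 4.90 to 21.2% at DIV4. The genotypes did not overlap at any of the 3 stages. Each exact permutation test gave p = 0.1, the smallest that 3 clones against 3 allow, and 0.357 after Benjamini-Hochberg adjustment over the 50 share tests. With Pdgfra left out of the total, the genotypes overlapped in OPCs, where control D7 lay above null 3F and 7F. They did not overlap at DIV2 or DIV4. With Pdgfra in the total, the Erbb3 share went up from OPC to DIV2 in all 3 null clones, by 2.22 to 12.4 percentage points. It went down in all 3 control clones, by 2.72 to 6.55 points. With Pdgfra left out, the Erbb3 share fell over that interval in every clone of both genotypes.

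**Figure D2:**
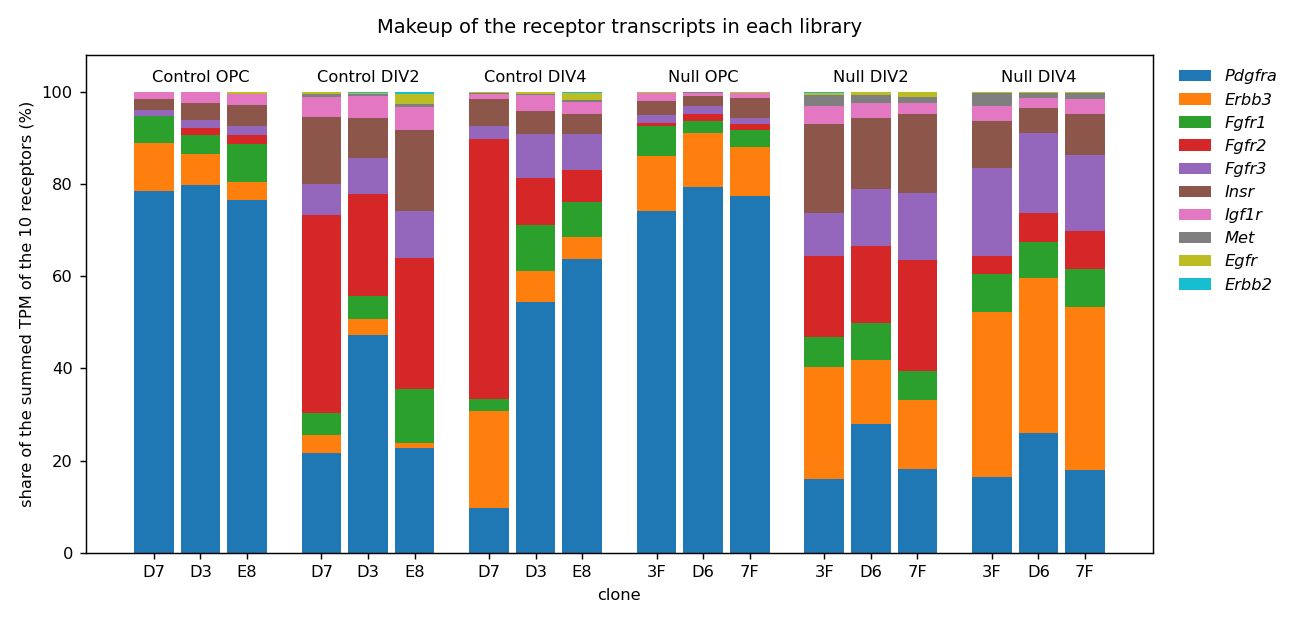
Share of the summed TPM of the 10 receptors held by each receptor (y axis, percent), 1 bar per library, grouped by genotype and stage with the clone below each bar. Pdgfra fills 74.0 to 79.9% of every OPC bar, and at DIV4 Erbb3 fills 33.6 to 35.8% in the null clones and 4.90 to 21.2% in the controls.

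The other ERBB receptors were close to absent. Egfr, the epidermal growth factor receptor, stood between 0.06 and 1.25 rescaled TPM over the 18 libraries, highest in control clone E8 at DIV4, and Erbb2, which has no ligand of its own and is the usual partner of Erbb3, was listed at 0 in 2 libraries and reached at most 0.16. Both fell short of the mean of 1 rescaled TPM required for the test. Erbb2 made up at most 0.49% of the receptor RNA in any library, and Egfr at most 2.23%.

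The FGF receptors differ in their ligands through part of the third immunoglobulin domain, which is encoded by either of a pair of mutually exclusive exons, named IIIb and IIIc. In GENCODE M21 (mm10) the Fgfr2 IIIb exon is a coding exon of 148 bases at chr7:130199758-130199905 on the minus strand, shown 5′ to 3′ because its share was lower at DIV2 than in OPCs in each clone.
Fgfr2 IIIb: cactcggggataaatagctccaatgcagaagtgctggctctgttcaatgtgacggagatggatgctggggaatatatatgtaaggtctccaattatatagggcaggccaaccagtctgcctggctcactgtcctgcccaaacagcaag

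Transcripts with the IIIc exon held most of the TPM of those with either exon at DIV2 and DIV4. For Fgfr1 the IIIc share stayed between 70.4 and 84.7% in all differentiated libraries and between 71.7 and 83.3% in OPCs. For Fgfr3 it was 66.3 to 74.7% in OPCs and 73.3 to 91.3% at DIV4. For Fgfr2 it was 27.0% in D7, 58.3% in D3 and 38.1% in E8 as OPCs, and 86.2, 83.3 and 74.6% in the same clones at DIV2. The null clones went from 57.7, 66.0 and 58.9% to 72.2, 72.0 and 82.6%. Fgfr2 IIIc was thus a larger share at DIV2 than in OPCs in all 6 clones, but by DIV4 it was 54.7, 66.3 and 75.7% in null clones, with 3F below its OPC share, and 90.8, 73.1 and 76.1% in controls. The OPC shares rest on little RNA, with a mean of 0.09 deposited TPM for IIIc in controls and 0.46 in null clones. These shares depend on how reads were divided among transcripts that overlap, and no test was made.

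**Figure D3:**
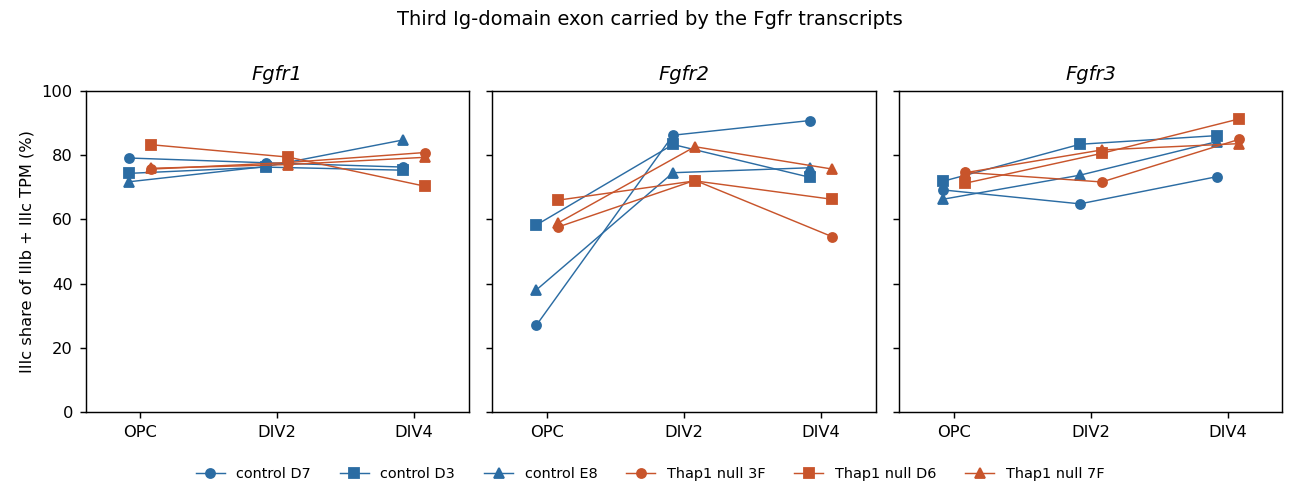
Share of IIIc among the TPM of transcripts with the IIIb or the IIIc exon (y axis, percent, 0 to 100) at each stage, 1 line per clone, for Fgfr1, Fgfr2 and Fgfr3. Fgfr1 stays between 70.4 and 84.7%, and Fgfr2 is higher at DIV2 than in OPCs in all 6 clones.

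In level, Fgfr1 and Fgfr2 moved in opposite directions on leaving the OPC stage. Fgfr1 stood at 7.96, 4.89 and 10.7 rescaled TPM in control OPCs of D7, D3 and E8 and at 1.22, 2.34 and 2.24 at DIV2. In null clones it went from 8.95, 3.31 and 3.52 to 1.41, 2.05 and 1.55. Every clone was lower at DIV2. OPC and DIV2 values did not overlap, as was so for 42.1% of all genes tested within the control clones and 50.8% within the null clones. Fgfr1 fell by 1.56 in controls (SE 0.42, limma adjusted p = 0.0102), while the null difference of -1.12 (SE 0.42) did not pass (adjusted p = 0.0582) except with a pseudocount of 0.1 (adjusted p = 0.0469). The control fall was not called when libraries were scaled to their protein-coding total (-1.05, adjusted p = 0.0676) and turned to 0.52 on the deposited TPM (adjusted p = 0.397). At DIV4 Fgfr1 was at 1.77 in D7, 8.90 in D3 and 5.98 in E8 and at 3.76 to 5.74 in null clones. The control DIV4 against DIV2 difference of 0.998 (SE 0.42, adjusted p = 0.401) was called at 1.53 without D7 at DIV4 (adjusted p = 0.0287).

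Fgfr2 was low in OPCs, at 0.08, 1.89 and 2.66 rescaled TPM in control clones D7, D3 and E8 and at 0.85, 2.02 and 1.14 in null clones 3F, D6 and 7F. At DIV2 it stood at 10.7, 10.3 and 5.41 in controls and at 3.74, 4.18 and 6.01 in null clones. All 6 clones were higher at DIV2. Fgfr2 rose by 2.07 in controls (SE 0.58, limma adjusted p = 0.0131), or 1.54 without the D7 OPC library (adjusted p = 0.0659), and the null difference of 1.28 (SE 0.58) did not pass (adjusted p = 0.116). Both were called on the deposited TPM, at 3.42 (adjusted p = 1.53e-06) and 1.67 (adjusted p = 0.00915), against median gene changes of 1.96 in controls and 0.32 in null clones.

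At DIV4 Fgfr2 reached 40.3 in D7 and stood at 9.21 in D3 and 5.57 in E8, against 1.81, 4.66 and 4.37 in the null clones. In D7 it made up 56.4% of the receptor RNA, against 6.98 to 10.2% in D3 and E8, in the library with the highest Mbp and nearly no Gfap. Fgfr2 was above its OPC level by 2.64 in controls (SE 0.58, adjusted p = 0.00380), 1.86 without D7 at DIV4 with the call kept, and by 0.95 in null clones (SE 0.58, adjusted p = 0.229). Null against control at DIV4 was -1.67 (SE 0.58, adjusted p = 0.113), and -0.89 without D7 at DIV4. The genotypes did not overlap there, as was so for 26.7% of all genes tested. On the deposited TPM the genotype difference was called at -1.87 (adjusted p = 0.0179), where 2.78% of all genes were. The Fgfr2 share of receptor RNA overlapped, at 3.97 to 8.07% in null and 6.98 to 56.4% in control clones (exact permutation p = 0.2, adjusted 0.385). With Pdgfra left out of the total these shares did not overlap.

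Fgfr3 changed late. It stood at 1.72, 1.98 and 2.39 rescaled TPM in control OPCs and 2.17, 2.12 and 1.27 in null OPCs, and at 1.68, 3.60 and 1.93 and 2.02, 3.13 and 3.61 at DIV2. At DIV4 it stood at 1.95 in D7, 8.57 in D3 and 6.18 in E8, and at 8.70, 12.8 and 8.94 in null clones. All DIV4 libraries but D7 exceeded every OPC and DIV2 library. Fgfr3 rose from OPC to DIV4 by 1.96 in null clones (SE 0.35, limma adjusted p = 0.000674), called in each of the 6 fits that left out 1 library, and by 0.96 in controls (SE 0.35, adjusted p = 0.0478). The control call held in 1 of 6 such fits, that without the D7 DIV4 library, with adjusted p from 0.00182 to 0.203. Between DIV2 and DIV4 the null rise of 1.51 (SE 0.35, adjusted p = 0.0399) was lost in all 6 fits, at 1.33 to 1.64 with adjusted p from 0.0921 to 0.161. The control difference of 0.83 over that interval (SE 0.35, adjusted p = 0.404) was called at 1.33 without D7 at DIV4 (adjusted p = 0.0128). With Fgfr2, Fgfr3 and Pdgfra, 3 of 7 receptors were called between control OPC and DIV4, where 32.2% of all genes were, and with Fgfr3 and Pdgfra 2 of 7 in null clones, where 33.3% were.

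At DIV4 the genotypes did not overlap for Fgfr3, by a margin of 8.57 in control D3 to 8.70 in null 3F, as was so for 26.7% of all genes tested. The difference of 0.91 (SE 0.35) did not pass (adjusted p = 0.154). It was called without the control D3 DIV4 library (1.26, adjusted p = 0.0461). As a share of receptor RNA Fgfr3 took 16.5 to 19.1% in null and 2.73 to 9.51% in control clones at DIV4 (exact permutation p = 0.1, adjusted 0.357). These shares overlapped between the genotypes once Pdgfra was left out of the total. Of the stretches of 31 bases in Fgfr3 transcripts, 14.9% also occur in transcripts of other genes, and for the other receptors this was at most 5.57%.

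**Figure D4:**
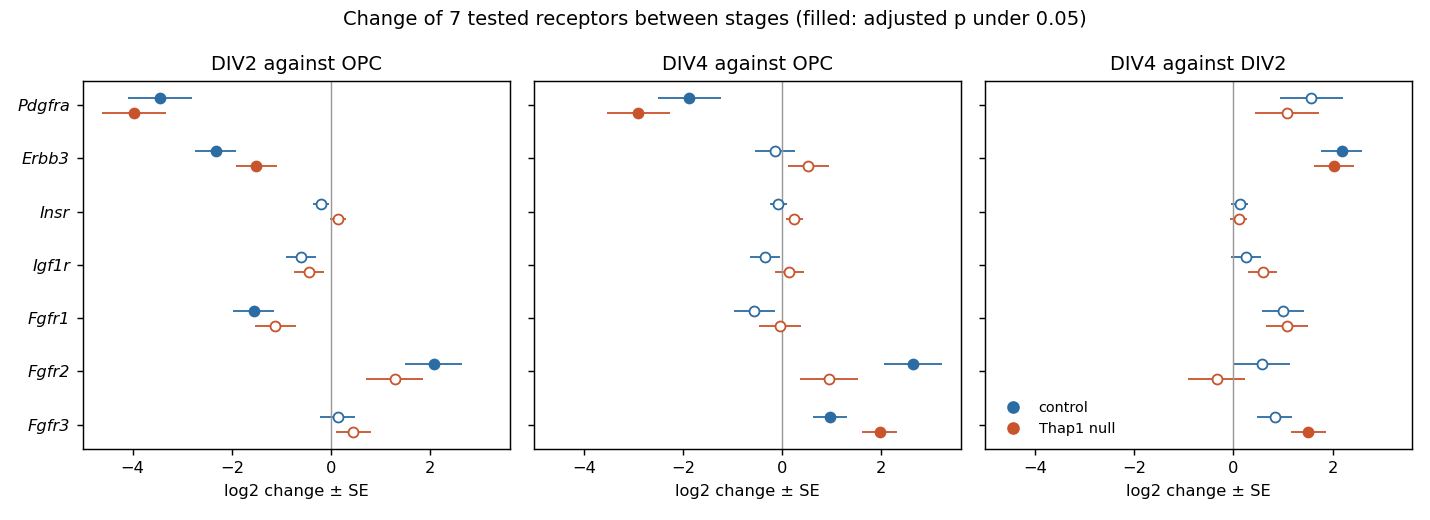
Change of the 7 tested receptors on the log2(rescaled TPM + 1) scale (x axis, error bars 1 SE from limma) between stages in control (blue) and Thap1 null (orange) clones, filled where the adjusted p is under 0.05. Pdgfra and Erbb3 are below 0 for DIV2 against OPC in both genotypes, Erbb3 is above 0 for DIV4 against DIV2, and Fgfr3 at DIV4 against OPC is at 0.96 in controls and 1.96 in null clones.

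Neither the insulin nor the insulin-like growth factor receptor passed a test on the rescaled TPM of all 18 libraries. Insr stood between 2.84 and 5.89 rescaled TPM in all 18 libraries, with group means of 4.47 ± 1.36 (SD, n = 3), 3.66 ± 0.31 and 4.11 ± 0.52 in controls at OPC, DIV2 and DIV4 and of 3.67 ± 0.73, 4.10 ± 0.19 and 4.51 ± 0.45 in null clones. The largest of its 12 differences was 0.34 on the log2 scale. Null DIV4 against OPC was called when libraries were scaled to their protein-coding total (0.51, limma adjusted p = 0.0320). Its control differences on the deposited TPM turned to 1.72 at DIV2 and 1.89 at DIV4, near the shift of the median gene. Its share of receptor RNA went from 2.20 to 4.55% in OPCs to 8.60 to 19.3% at DIV2 as Pdgfra declined.

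Igf1r stood at 1.87, 2.89 and 3.18 rescaled TPM in control OPCs and at 2.30, 0.95 and 1.08 in null OPCs. At DIV2 it stood at 1.08, 2.28 and 0.97 in controls and 0.81, 0.81 and 0.61 in null clones, and at DIV4 at 0.78, 3.11 and 2.12 and at 1.54, 1.64 and 1.69. Control D3 held the most at DIV2 and DIV4. No null DIV2 library reached a control one, and the genotypes did not overlap at DIV2 for 30.9% of all genes tested. The differences of null from control were -0.60 in OPCs (SE 0.30, limma adjusted p = 0.199), -0.45 at DIV2 (SE 0.30, adjusted p = 0.528) and -0.11 at DIV4 (SE 0.30, adjusted p = 0.885). On the deposited TPM control DIV4 against OPC was called in the opposite direction (1.33, limma adjusted p = 0.0105), and null DIV4 against DIV2 was called when only those libraries were fitted (0.59, adjusted p = 0.0142).

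Met, the hepatocyte growth factor receptor, was low in every library and higher at DIV2 and DIV4 than as OPCs in each clone. It was listed at 0 in all 3 control OPC libraries and at 0.05, 0.14 and 0.02 rescaled TPM in null OPCs. The control OPC libraries also had the fewest transcripts above 0, at 54031 to 59435 against 65662 to 70964 in the others, so a listed 0 there does not show absence. At DIV2 it stood at 0.17, 0.14 and 0.11 in control and 0.53, 0.45 and 0.30 in null clones, and at DIV4 at 0.12, 0.28 and 0.33 and at 1.24, 0.78 and 0.67. The genotypes did not overlap at any stage, as was so for 25.2% of the genes tested in OPCs, 30.9% at DIV2 and 26.7% at DIV4. Met missed the mean of 1 required for the test. When all 38046 genes were tested without that filter, null against control at DIV4 was called (0.60, limma adjusted p = 0.0120), where 1.2% of those genes were, as were null DIV2 and DIV4 against OPC (0.41 and 0.81, adjusted p = 0.0272 and 0.000304), where 8.03% and 10.4% were. As a share of receptor RNA it took 1.05 to 2.71% in null and 0.16 to 0.41% in control clones at DIV4 (exact permutation p = 0.1, adjusted 0.357).

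The order of the receptors thus changed with stage. By group mean, Pdgfra led in both OPC groups, with Erbb3 next at 8.82 in controls and 13.7 in null clones. At DIV2 Pdgfra (10.5 ± 9.83) and Fgfr2 (8.80 ± 2.94) were within their spread in controls, and in null clones Pdgfra, Fgfr2, Erbb3 and Insr all lay between 4.10 and 5.0. At DIV4 Pdgfra (35.6 ± 24.8) and Fgfr2 (18.4 ± 19.1) led in controls with wide overlap, while Erbb3 (20.1 ± 4.32) led in null clones, above Pdgfra (12.1 ± 6.19) and Fgfr3 (10.2 ± 2.31), whose values overlapped.

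The genes whose levels followed each receptor most closely over the 18 libraries were found among 6626 or 6627 protein-coding genes by Pearson correlation of log2(rescaled TPM + 1). For Pdgfra they were Lnx1 (r = 0.97), Etv1 (0.95) and the neural stem cell filament gene Nes (0.95), and for Erbb3 the transcription factor gene Jun (0.89), Mprip (0.82) and Arfrp1 (0.81). For Fgfr1 they were Usp24 (0.92), Nr2f1 (0.91) and Chl1 (0.90), for Fgfr2 Cdip1, Aplp1 and Add1 (0.92 each), and for Fgfr3 Fermt2 (0.93), Eef2k (0.92) and Trib3 (0.91). For Igf1r they were Nsd1 (0.88), Nr2f1 (0.87) and Arhgef4 (0.84), and for Insr Kdm2a (0.79), Ikbkb (0.77) and Nr2c2 (0.77). The libraries share clones and stages, so these values describe the set and carry no test.

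The genes that receptors act on were read next, as counts of called genes beside the share of all genes called. Transcription factors and early genes that follow MAPK activity fell with Pdgfra. Between control OPC and DIV2, 11 of 13 tested were lower and 0 higher, with a median of -1.87, where 17.3% of all genes were called lower and 17.7% higher. The furthest were Ccnd1, the cyclin of the early cell cycle (-3.82, SE 0.65), the ETS factor Etv5 (-2.90, SE 0.63) and the immediate early gene Ier2 (-2.74, SE 0.62). In null clones 6 of 13 were lower and 0 higher, with a median of -1.16, where 13.5% and 14.4% of all genes were, led by Ccnd1 (-3.65, SE 0.65), Etv4 (-2.87, SE 0.62) and Etv5 (-2.46, SE 0.63). The control counts on the deposited TPM became 0 lower and 1 higher of 12, while the null count was 5 lower and 0 higher. Of 12894 genes tested on that scale, 72 were called lower and 10713 higher in controls. In null clones 452 were called lower and 1845 higher. At DIV4 against OPC 6 were lower in controls, where 16.1% of all genes were, and 5 in null clones, where 16.8% were.

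**Figure D5:**
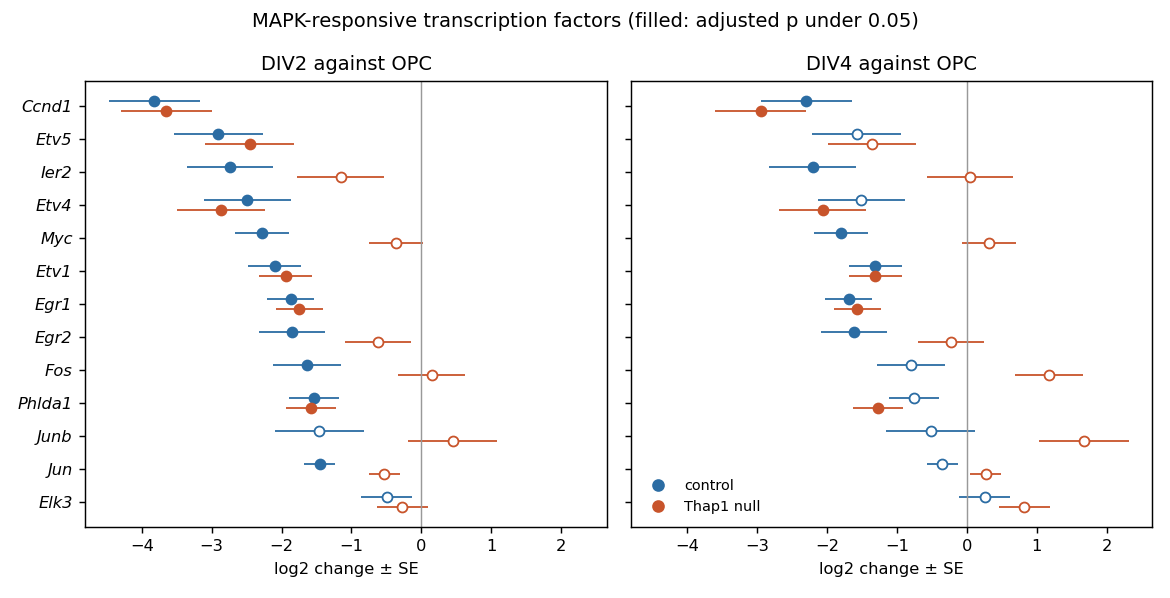
Change of 13 MAPK-responsive genes on the log2(rescaled TPM + 1) scale (x axis, error bars 1 SE from limma) at DIV2 and DIV4 against OPC in control (blue) and Thap1 null (orange) clones, filled where the adjusted p is under 0.05. Ccnd1, Etv1 and Egr1 are below 0 and filled in both genotypes at both times.

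Feedback inhibitors of receptor signalling moved in both directions. Between control OPC and DIV2, 5 of 20 tested fell, where 17.3% of all genes did, and 2 rose, where 17.7% did. Those that fell furthest were the MAPK phosphatase gene Dusp6 (-2.67, SE 0.53) and the Ras-MAPK inhibitors Spry4 (-2.19, SE 0.56) and Spred2 (-1.75, SE 0.25), and those that rose were the phosphatase gene Dusp7 (2.08, SE 0.30) and the EGF receptor inhibitor Errfi1 (0.89, SE 0.24). In null clones 2 fell and 6 rose, where 13.5% and 14.4% of all genes did, with Spred2 (-1.32, SE 0.25) and Spred1 (-1.05, SE 0.30) down and Dusp7 (1.58, SE 0.30), the receptor phosphatase gene Ptprj (1.20, SE 0.26) and Errfi1 (1.14, SE 0.24) up the most. In null OPCs 4 were lower than in control OPCs and 0 higher, where 5.94% and 6.02% of all genes were, among them the cytokine signalling inhibitors Socs2 (-1.77, SE 0.32) and Socs3 (-1.45, SE 0.26) and Rnf41 (-0.62, SE 0.12), whose ubiquitin ligase acts on Erbb3. Without the control D3 OPC library 6 fell and 5 rose in controls, 4 fell and 6 rose in null clones, and 9 were lower and 1 higher between OPCs. Without the control D7 DIV4 library these counts were 7 and 5, 7 and 6, and 7 and 0. The share of all genes called without either library was not computed. With the deposited TPM 0 fell and 14 rose in controls, 0 fell and 5 rose in null clones, and 12 were higher and 0 lower in null than in control OPCs. Of 12894 genes tested on that scale, 72 fell and 10713 rose in controls, and 452 fell and 1845 rose in null clones. Between OPCs 10407 were higher and 39 lower in null clones.

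Genes of the PI3K branch changed both ways too. In controls 7 of 19 tested rose between OPC and DIV2, where 17.7% of all genes did, and 3 fell, a share close to the 17.3% of all genes. The PI3K regulatory subunit gene Pik3r3 (3.45, SE 0.38), the phospholipase gene Plcg2 (3.03, SE 0.33) and the mTOR complex gene Rictor (1.66, SE 0.18) rose most, and the catalytic subunit gene Pik3cb (-0.96, SE 0.20), Pik3r1 (-0.67, SE 0.13) and Akt2 (-0.40, SE 0.13) fell. In null clones 6 rose, where 14.4% of all genes did, led by Pik3r3 (3.76, SE 0.38), Plcg2 (2.32, SE 0.33) and Prkca (1.39, SE 0.23), and Pik3cb and Pik3r1 fell (-0.99 and -0.43), where 13.5% of all genes did. In null OPCs 3 of 19 were lower than in control OPCs and 0 higher, where 5.94% and 6.02% of all genes were, namely Pik3r2 (-1.17, SE 0.17), Akt1 (-1.02, SE 0.29) and Akt2 (-0.66, SE 0.13). Without the rescaling 18 were higher and 0 lower in controls at DIV2, 6 and 0 in null clones, and all 19 were higher in null OPCs. Most genes moved that way there: of 12894 tested, 10713 were called higher in controls at DIV2 and 10407 in null OPCs. In null clones at DIV2 1845 were called higher.

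Of 15 genes of the Ras-MAPK cascade, 3 rose and 1 fell in each genotype between OPC and DIV2. Of all genes 17.7% rose and 17.3% fell in controls and 14.4% and 13.5% in null clones, so the counts for the cascade do not stand out. Mapk3, which encodes the kinase ERK1, rose by 2.75 in controls (SE 0.36) and 2.13 in null clones (SE 0.36), and Rasa1, which switches Ras off, fell by 0.56 (SE 0.15) and 0.43 (SE 0.15). Nras (1.08, SE 0.14) and Araf (0.90, SE 0.16) also rose in controls, and Araf (0.74, SE 0.16) and Map2k2 (0.62, SE 0.13) in null clones. Without the rescaling all 15 were higher in controls and 4 in null clones, with 0 lower in either. Of 12894 genes tested on that scale, 10713 were called higher in controls and 1845 in null clones.

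Among adaptors and docking proteins, Irs1, which links the insulin and insulin-like growth factor receptors to PI3K, rose by 2.81 in controls (SE 0.29) and 1.99 in null clones (SE 0.29) between OPC and DIV2. The phosphatase gene Ptpn11 rose by 1.33 (SE 0.28) and 1.20 (SE 0.28), and the Shc adaptor genes Shc3 and Shc4 fell by 2.82 and 2.30 in controls and by 2.61 and 1.81 in null clones. In all, 3 rose and 3 fell of 20 tested in controls, and 3 rose and 4 fell in null clones, shares near those of all genes (17.7% and 17.3% in controls, 14.4% and 13.5% in null clones). Grb10, an inhibitory adaptor of the insulin receptor, was higher in null than in control OPCs by 1.95 (SE 0.25, limma adjusted p = 0.000318) and fell by 1.84 (SE 0.25) in null clones at DIV2. Without the rescaling the control counts were 16 higher and 0 lower, and the null counts 3 higher and 2 lower. Of 12894 genes tested on that scale, 10713 were called higher and 72 lower in controls, and 1845 and 452 in null clones.

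Most ligands were below the level required for the test. Of 24 growth factor genes, 4 reached a mean of 1 rescaled TPM. Pdgfa, which encodes the ligand of Pdgfra, rose between OPC and DIV2 by 1.74 in controls (SE 0.26, limma adjusted p = 0.000245) and 1.28 in null clones (SE 0.26, adjusted p = 0.00234), while its receptor fell. Pdgfa was the 1 of 4 that rose, where 17.7% of all genes did in controls and 14.4% in null clones. It was lower in null than in control clones at DIV2 by 1.17 (SE 0.26, adjusted p = 0.0256), 1 of 4 where 2.8% of all genes were called. Of 5 tested genes that bind or clear insulin-like growth factors, Igfbp7 was the 1 that rose in controls (1.47, SE 0.37). That share is near the 17.7% of all genes that rose in controls from OPC to DIV2.

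Of 31 other receptor tyrosine kinases 11 were tested. The collagen receptor gene Ddr1 rose between OPC and DIV2 in controls (0.98, SE 0.25) and null clones (1.58, SE 0.25), 1 of 11 where 17.7% and 14.4% of all genes rose, and the neurotrophin receptor gene Ntrk3 fell in both (-1.99 and -1.61, SE 0.42). Ptk7 fell in controls (-0.76, SE 0.23) and Kit in null clones (-1.63, SE 0.52). In each genotype 2 of 11 thus fell, where 17.3% of all genes did in controls and 13.5% in null clones. Without the control D7 DIV4 library 4 fell in controls and 3 in null clones, and the share of all genes called there was not computed. On the deposited TPM 7 were higher and 0 lower in controls, where 10713 of 12894 genes were called higher and 72 lower.

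The consensus TNNGGGCA, published for THAP1, was looked for on both strands of the windows from 250 bases before to 50 bases after the start of each gene in RefSeq (GRCm38.p6), where 13.9% of 32851 windows hold it and 15.7% of 27025 genes have a window that does. It was found in the windows of 2 of the 7 receptors that had one, shown with the match in capitals.
Egfr: ctaactagacgTCTGGGCAgccccagcgc
Erbb2: caagcgaggcgTCAGGGCAcagggcgcgac
Both belong to the 3 receptors below the minimum level for the test, and the windows of Pdgfra, Fgfr2, Fgfr3, Igf1r and Met held no match.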

How the data were processed

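TPM per transcript was deposited by the authors for 18 libraries of total RNA, made with a stranded kit with rRNA removal per the labels' protocols. The submitters' processing notes name mm10, STAR and Picard, and how reads were assigned to transcripts is not given in the sources used here. Here TPM was summed by gene symbol over 93666 transcripts and divided by median-of-ratios factors. The mean over all libraries had to reach 1 rescaled TPM. Groups were compared with limma 3.58.1 (R 4.3.3) on log2(rescaled TPM + 1), with 1 mean per group, eBayes with a mean trend, two-sided tests, Benjamini-Hochberg adjustment over 12473 genes and calls at 0.05. A log2 change on this scale understates the change of low genes. The limma step was tested on simulated data. Shares were compared by exact two-sided permutation over clones (SciPy 1.17.1). Transcript types and exons came from GENCODE M21, which held 96.5% of the transcript IDs. The receptors and gene lists were chosen with earlier results of these data known. From each list the text names up to 3 called genes with the largest change in each direction, and for each tested receptor the 3 genes with the highest correlation. Same-clone libraries are the same cell line at different stages, so clone pairs them: their deviations from group means correlated at 0.12 on average over 18 pairs, against -0.02 for different clones. Alternatives changed the scaling, pseudocount, filter, variance prior, libraries, clone block and transcripts. The list counts under other scalings and without 2 libraries that stand apart were chosen after seeing the data. The names of 150 transcripts that read as dates were restored to gene symbols. Protein sequences were not used here, and some exon sequences are not reported here.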

Additional observations from a re-analysis of the deposited data

Results flagged for a closer look

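The Erbb3 share of the receptor RNA moved in opposite directions from OPC to DIV2, up in all 3 null clones and down in all 3 control clones. The difference, null minus control, was 10.41 percentage points (exact permutation p = 0.1, the smallest possible for 3 clones against 3, and 0.357 after adjustment over 50 tests). The level of Erbb3 fell in every clone, and its change did not differ between genotypes in limma (0.82, adjusted p = 0.576). The Pdgfra share, part of the same total, went from a mean of 76.9 to 20.7% in null clones and from 78.3 to 30.5% in controls. With Pdgfra left out of the total, the Erbb3 share fell from OPC to DIV2 in every clone of both genotypes.

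For 2 of 107 tested genes of the signalling lists (1.87%) the change from OPC to DIV4 differed between genotypes in limma, where 2.79% of all genes did. Pik3r2, a PI3K regulatory subunit gene, had a difference of 1.41 on the log2 scale (null minus control, SE 0.24, adjusted p = 0.0111), and Socs3, a cytokine signalling inhibitor gene, one of 1.61 (SE 0.37, adjusted p = 0.0352). Both were lower in null than in control OPCs.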

How the results depend on the processing

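The clone as a replicate block changed the call of none of the 84 receptor results, the Pdgfra change in control clones from OPC to DIV2 staying at -3.44, and the same held for eBayes without the trend. On the deposited TPM 11 of 84 results reversed, meaning that the sign turned and the result was called on either scale. They were in the comparisons with control OPC libraries. Control DIV4 against OPC was 2.01 for Erbb3, 1.68 for Fgfr1, 1.33 for Igf1r, 1.89 for Insr and 0.85 for Pdgfra. Control DIV2 against OPC was 0.52 for Fgfr1 and 1.72 for Insr. Null against control in OPCs was 1.23 for Insr and 1.96 for Pdgfra. The Insr differences between genotypes were -1.24 for DIV2 and -1.26 for DIV4 against OPC. All 11 lie in the direction of the shift of the median gene, which in these comparisons was 2.015, 1.96, 1.503, -1.66 and -1.68 in that order. The sign also turned in 15 more results that were called on neither scale. The number of receptors called on that scale was 6 of 7 for control DIV4 against OPC (88.1% of all genes), 3 for null against control in OPCs (81%), 3 for each of the interactions of DIV2 and DIV4 against OPC (72.6% and 73.5%), 1 for null DIV4 against DIV2 (0.52%) and 1 for null against control at DIV4 (2.78%). For control DIV4 against DIV2 it was 0 without the filter and 0 with only the libraries compared, and for control DIV4 against OPC 0 with only the libraries compared. For null DIV4 against DIV2 it was 1 with a mean of at least 5 TPM, 0 without the filter, 4 with only the libraries compared and 0 with a pseudocount of 0.1, for null DIV4 against OPC 1 with a mean of at least 5, for null against control at DIV2 1 with a pseudocount of 0.1, and at DIV4 1 without the filter (Met). Fewer receptors are tested at a mean of at least 5, and for the other settings the cause was not tested. Apart from the deposited TPM, the share of all genes called beside these counts was computed only for null against control at DIV4 without the filter (1.2%). Leaving out 1 library each gave 0 to 4 receptors for control DIV4 against DIV2, 1 to 2 for control DIV4 against OPC, 0 to 1 for null DIV4 against DIV2 and 0 to 2 for null against control at DIV4. The share of all genes called was not computed for these fits. Of 630 such results, 31 turned sign with no call in either fit, 24 lost the call and 6 gained it. No result that was called in either fit turned sign. Where leaving out 1 library left 2 clones in a group, their spread was pooled with that of the other groups, as in the main fit. TPM holds no read depth, so no counting error could be given.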
